A study of Rattus norvegicus with 10 samples.

Results

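The 9 genes described here encode structural proteins of the myelin sheath, and they were taken as a list by name: Mbp, Mog, Mag, Mobp, Cnp, Cldn11, Mal, Opalin and Ermn. All 9 were present among the 14166 genes of the bulk table and in the 4 nucleus matrices. The list names genes and sets no threshold on a measured value, but it was drawn up with earlier results of these data known. The rats were male Sprague-Dawley, about 8 to 15 weeks old at injury, and carried no transgene. TBI was a lateral fluid percussion injury given 3 days after a craniectomy, sham rats had the same surgery without the fluid pulse, and the naïve rat had no surgery. The ipsilateral dentate gyrus was taken 3 weeks later. Bulk RNA-seq compared 3 TBI with 3 sham rats, and snRNA-seq compared 2 TBI rats with a control arm of 1 sham and 1 naïve rat. With a single rat of each kind, the sham and naïve procedures cannot be told apart from the individual rats within that arm.

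Myelin is the membrane that oligodendrocytes wrap around axons, and these genes are switched on together as a committed precursor matures, largely by the transcription factors SOX10 and MYRF. Mbp (myelin basic protein) and Mobp encode proteins that hold the cytoplasmic faces of the wrapped membrane together, and both mRNAs are carried out into the cell's processes to be translated there. Cnp encodes CNPase, an enzyme that keeps cytoplasmic channels open inside the sheath. Mag encodes an adhesion protein facing the axon, and Mog a surface protein of the outermost layer. Cldn11 forms tight junctions between the wraps, Mal sorts membrane proteins into lipid rafts, Opalin is a transmembrane glycoprotein of oligodendrocytes, and Ermn (ermin) is a cytoskeletal protein of late maturation. The hippocampus holds myelinated fibres mainly in its tracts and in the hilus, and the granule cell layer has few.

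Bulk libraries held 25121893 to 44649404 estimated transcript counts. Markers of dentate granule neurons (Prox1, Dsp, Pdzd2 and C1ql2) were unevenly present in tissue labelled as dentate gyrus, with summed levels of 370, 72.7 and 69.7 CPM in sham replicates 1 to 3 and 247, 77.7 and 211 CPM in TBI replicates 1 to 3. In snRNA-seq 55124 of 55863 deposited nuclei passed the study's filters, with a median of 1647 to 2652 UMIs per nucleus in the 4 rats, and any pair of rats shared 46 to 64 barcodes (0.404% to 0.455% of the smaller set).

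In bulk tissue all 9 myelin genes were highest in 1 library, sham replicate 2, and no member differed between TBI and sham beyond the spread of the rats. Their fitted levels were lower in TBI for 9 of 9, with Log2FC between −0.96 and −0.47 (median −0.69, against −0.00 over all genes), and 50.6% of all genes had a Log2FC below 0. None of the 9 passed an FDR of 0.05 by edgeR's quasi-likelihood test, where the called share of all genes was 0.00%, and none had an unadjusted p under 0.05, where the share of all genes was 9.60%. DESeq2 called none of the 9 either, and 2.47% of all genes. Without sham replicate 2 the Log2FC of the members lay between −0.19 and 0.26, 5 lower and 4 higher in TBI, with a median of −0.015, where 49.5% of all genes were lower.

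Among the proteins of compact myelin, Mbp (Entrez gene 24547) stood at 2933, 8741 and 3544 CPM (counts scaled to a library total of 1000000) in sham replicates 1, 2 and 3 and at 2683, 4088 and 2920 CPM in TBI replicates 1, 2 and 3. Sham replicate 2 was the highest library and TBI replicate 2 the next, and the other 4 lay close together across both groups. The means were 5073 ± 3192 CPM (SD, n = 3) in sham and 3230 ± 752 CPM (SD, n = 3) in TBI, a Log2FC of −0.69 (SE 0.41, FDR = 0.675, edgeR). Mobp (Entrez gene 25037) had the same shape, with 303, 1085 and 427 CPM in sham and 288, 432 and 308 CPM in TBI. Its Log2FC was −0.86 (SE 0.45, FDR = 0.633, edgeR). The groups overlapped for both genes, as they did for all 9 members, while 3.04% of all genes had groups apart with TBI lower.

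The channel enzyme gene Cnp (Entrez gene 25275) stood at 315, 898 and 366.3 CPM in sham and 315, 453 and 303 CPM in TBI, a Log2FC of −0.60 (SE 0.40, FDR = 0.706, edgeR). Mag (Entrez gene 29409), the adhesion protein of the axon-facing layer, stood at 153, 546 and 223 CPM in sham and 167, 291 and 172 CPM in TBI. Its Log2FC was −0.59 (SE 0.47, FDR = 0.764, edgeR), and the lowest library of all was a sham rat. Mog (Entrez gene 24558), of the outer surface, stood at 66.6, 212 and 87.5 CPM in sham and 62.8, 88.1 and 72.9 CPM in TBI, a Log2FC of −0.75 (SE 0.41, FDR = 0.653, edgeR).

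Cldn11 (Entrez gene 84588), the tight junction gene, stood at 171, 601 and 203 CPM in sham and 172, 326 and 192 CPM in TBI. Its Log2FC was −0.54 with the largest standard error of the 9 (SE 0.50, FDR = 0.804, edgeR). Mal (Entrez gene 25263), the lipid raft gene, stood at 156, 430 and 181 CPM in sham and 147, 257 and 165 CPM in TBI, a Log2FC of −0.47 (SE 0.41, FDR = 0.783, edgeR). For both genes TBI replicate 2 lay above the other TBI rats and above sham replicates 1 and 3.

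Opalin (Entrez gene 361757) stood at 67.1, 245 and 94.1 CPM in sham and 67.4, 104 and 73.9 CPM in TBI, a Log2FC of −0.76 (SE 0.46, FDR = 0.679, edgeR). Ermn (Entrez gene 295619), the late maturation gene, stood at 46.5, 171 and 62.5 CPM in sham and 44.3, 61.4 and 41.3 CPM in TBI. It was the member with the lowest Log2FC, −0.96 (SE 0.47, FDR = 0.599, edgeR), and the only one whose second highest library was sham replicate 3 and not TBI replicate 2.

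**Figure D1:**
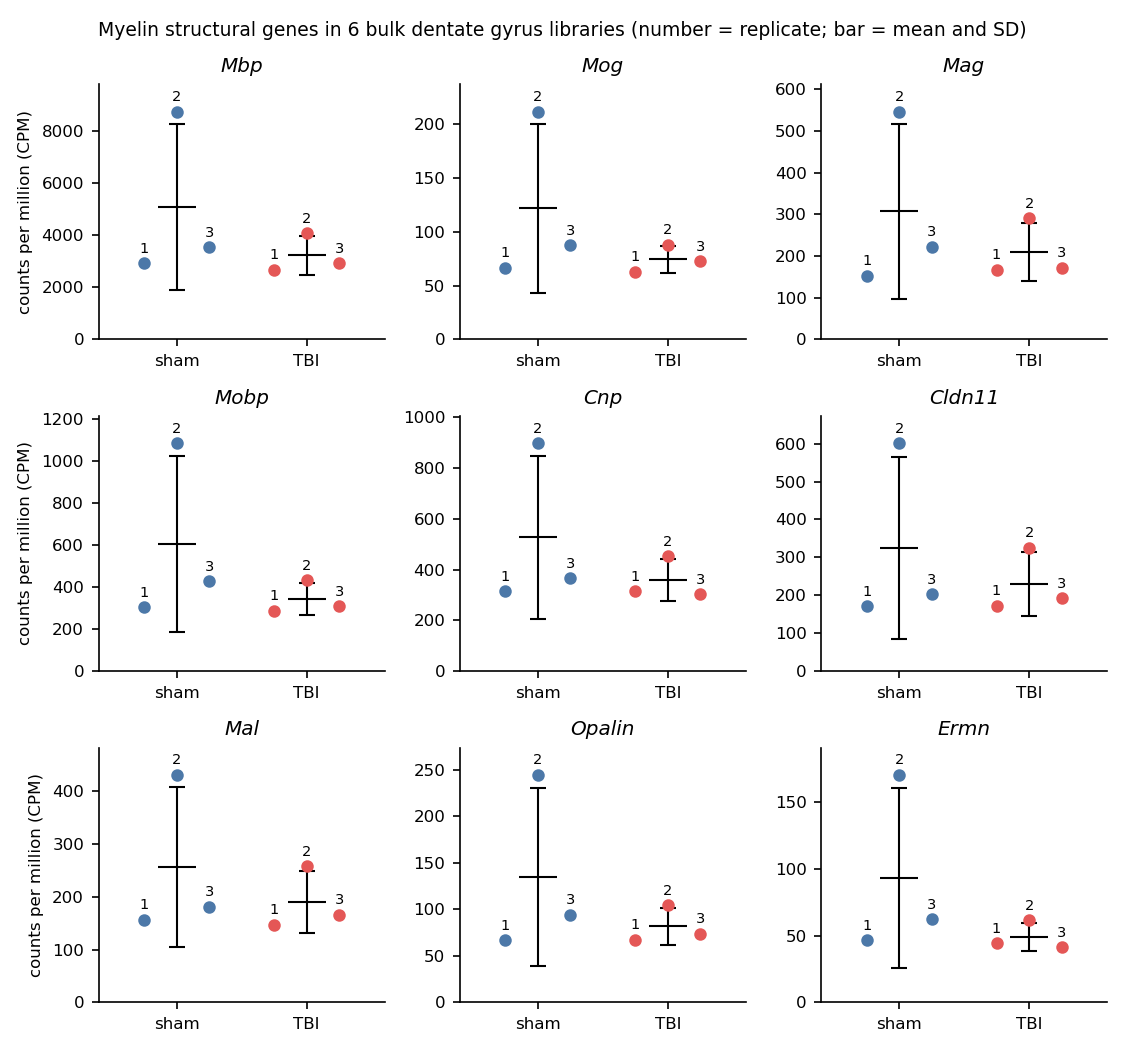
Level of each myelin gene in CPM (vertical axis of each panel, starting at 0) in the 3 sham and 3 TBI bulk libraries, each point a rat with its replicate number, and the bar the group mean with its SD. Sham replicate 2 is the top point in all 9 panels, and the other 5 points of a panel differ by at most 1.91 times.

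Sham replicate 2 lay 2.60 to 3.67 times above the median of the other 5 libraries for the 9 genes, and TBI replicate 2 lay 1.26 to 1.79 times above the median of the 4 that remained. Sham replicate 2 was the highest library for 20.7% of all genes. It stood more than 1.5 log2 units above the median of the others for 208 genes (1.47%), and 8 of these were members. The coefficient of variation over rats was accordingly 59.2% to 73.8% in sham and 17.1% to 36.4% in TBI. Summed over the 9 genes the level was 4211, 12929 and 5188 CPM in sham and 3946, 6100 and 4248 CPM in TBI, which was 1.29% of all counts in sham replicate 2 and 0.395% to 0.610% in the others. In bulk tissue, more oligodendrocytes and more RNA per oligodendrocyte cannot be told apart.

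Sham replicates 1 and 2 and TBI replicate 1 were injured or sham-operated in the first part of the year, and the other 3 rats in the autumn. Within the earlier set the members were lower in TBI by 0.76 to 1.01 on the log2 scale, a set that contains sham replicate 2, and within the autumn set the differences ran from −0.31 to 0.30. The granule neuron markers were low in sham replicates 2 and 3 and TBI replicate 2, and these were also the 3 libraries with the highest summed myelin level. Sham replicates 2 and 3 held 72.7 and 69.7 CPM of these markers, and 12929 and 5188 CPM of the members. The part of dissection in the bulk result was not tested.

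**Figure D2:**
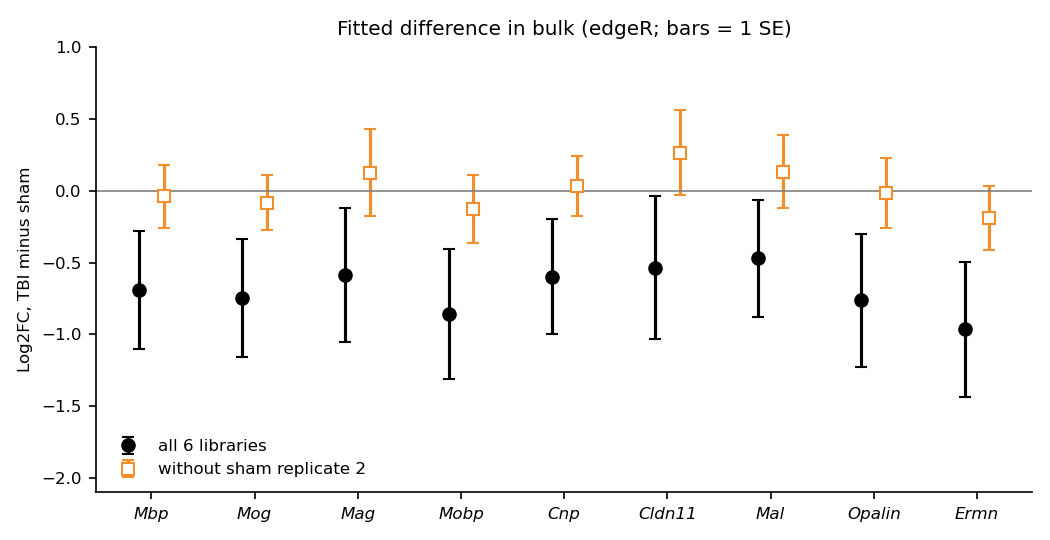
Fitted Log2FC, TBI minus sham (vertical axis), of each myelin gene with 1 SE, from all 6 libraries (filled circles) and without sham replicate 2 (open squares). All 9 circles lie below 0, and without that library the squares lie between −0.19 and 0.26.

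The 9 genes moved together across rats. Over the 36 pairs of members Pearson's r of log2 CPM was 0.937 to 0.998 with 6 libraries, and 0.684 to 0.990 over the 5 libraries without sham replicate 2. These are descriptions, and the points share library, tissue piece and depth. By r with the mean of the 9 genes, the non-members most like them were Bcas1 (r = 0.998), a myelin-associated gene of the lineage, Olig1 (0.997) and Sox10 (0.997), transcription factors of the lineage, Gpr37 (0.995), a receptor of maturing oligodendrocytes, and Pik3r4 (0.995), a subunit of a lipid kinase used by all cells. Bcas1 went from 184 CPM in sham replicate 1 to 547 CPM in sham replicate 2, and Pik3r4 only from 48.5 to 55.7 CPM over the 6 libraries, so a high r here says nothing of the size of a change.

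What remained after the shared movement was small. With the mean log2 CPM of the 9 genes of each library subtracted, a member's value differed from its own average by −0.20 to 0.24, while the mean of the 9 itself ranged over 1.75 log2 units. Ermn stood lower relative to the other members in every TBI rat than in any sham rat (mean difference −0.23), and so did Mobp (−0.14). On the same relative scale, groups did not overlap for 9.16% of all genes. Cldn11 (0.16) and Mal (0.16) stood higher relative to the others in TBI, with groups that overlapped. The share of Mbp in the counts of the 9 genes was 67.0% to 69.6% in every library, not corrected for transcript length.

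The promoters of the members were read for the letters of SOX and MYRF motifs. The part of these motifs in the shared movement was not tested. Of the 9 members 7 had an entry in the promoter table (RefSeq, GRCr8), and 6 were searched over the 250 bases before the start site on both strands. The MYRF motif CTGGCAC was in 4 of the 6 (Mag, Opalin, Mal and Cnp) and in 3.78% of 33469 promoters. A SOX motif, ACAAAG or ACAATG, was in 4 of the 6 (Mag, Opalin, Mobp and Cnp) and in 25.3% of all promoters, and 3 of the 6 held both kinds, against 0.905%. The 3 with both and Mobp, which held ACAAAG 8 times on the reverse strand, are shown 5′ to 3′ in the direction of transcription with motif letters, on either strand, in capitals. The Mag sequence is chr1:95291045-95291294 (reverse strand), Opalin chr1:249858191-249858440 (reverse strand), Cnp chr10:86011254-86011503 (forward strand) and Mobp chr8:128746982-128747231 (forward strand).
Mag: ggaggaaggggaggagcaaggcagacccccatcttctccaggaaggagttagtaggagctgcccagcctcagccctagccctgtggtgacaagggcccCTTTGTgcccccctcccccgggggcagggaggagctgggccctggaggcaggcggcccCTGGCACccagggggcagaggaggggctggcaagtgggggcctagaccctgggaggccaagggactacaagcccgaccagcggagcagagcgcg
Opalin: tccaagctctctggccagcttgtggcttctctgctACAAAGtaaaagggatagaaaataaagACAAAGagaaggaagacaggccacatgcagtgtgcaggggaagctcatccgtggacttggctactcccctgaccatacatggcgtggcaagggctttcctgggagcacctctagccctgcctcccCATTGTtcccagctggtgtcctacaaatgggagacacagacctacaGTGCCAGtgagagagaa
Cnp: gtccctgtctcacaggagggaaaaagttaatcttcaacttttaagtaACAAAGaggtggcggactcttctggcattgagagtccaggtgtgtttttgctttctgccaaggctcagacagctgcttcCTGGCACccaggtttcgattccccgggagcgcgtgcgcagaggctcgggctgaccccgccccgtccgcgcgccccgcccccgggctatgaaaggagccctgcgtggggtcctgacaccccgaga
Mobp: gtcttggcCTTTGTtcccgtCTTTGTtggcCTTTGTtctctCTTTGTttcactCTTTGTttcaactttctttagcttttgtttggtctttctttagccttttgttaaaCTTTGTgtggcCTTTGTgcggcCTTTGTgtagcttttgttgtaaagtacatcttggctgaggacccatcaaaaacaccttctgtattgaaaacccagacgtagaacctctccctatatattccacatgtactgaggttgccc
The MYRF motif began at position −94 in Mag, −17 in Opalin and −124 in Cnp, counted from the start site, and −126 in Mal. SOX motifs began at −152 in Mag, at −215, −188 and −63 in Opalin and at −203 in Cnp. A match of letters is a description of these windows and not a measured binding site.

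Other genes of myelination, in lists chosen with results of these data known, had the same highest library. Of 10 other myelin and glial junction proteins 9 were highest in sham replicate 2 and 9 had a Log2FC below 0, with a median of −0.49 that became 0.07 without that library. All 6 myelin lipid enzymes were highest in sham replicate 2, among them Ugt8, which makes galactosylceramide (Log2FC −0.99, SE 0.52), and 5 of the 6 had a Log2FC below 0 (median −0.18, and 0.23 without that library). All 9 transcription regulators were also highest there, with medians of −0.30 and 0.14. Of the 7 receptors for myelin inhibitors none was highest there. No gene of the 4 lists passed the FDR.

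Of the 7 receptors 2 had a Log2FC above 0 and 5 below (median −0.13, and −0.25 without sham replicate 2). Groups did not overlap for the 2 above 0, Tnfrsf19 and Lrp1, where 14.7% of all genes had groups that did not overlap. Tnfrsf19, a TNF receptor family member known as TROY, stood at 36.3, 41.1 and 35.8 CPM in sham and 45.4, 51.5 and 45.8 CPM in TBI (Log2FC 0.30, SE 0.11, FDR = 0.418, edgeR). Lrp1, an endocytic receptor, stood at 627, 702 and 601 CPM in sham and 726, 771 and 789 CPM in TBI (Log2FC 0.21, SE 0.10, FDR = 0.601, edgeR). 

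In the nuclei, clustering was run with the 9 members left out, and clusters were named by other markers. Of 23 clusters, clusters 5 (2521 nuclei) and 15 (745 nuclei) had 14 of 14 oligodendrocyte markers above their level in the remaining nuclei, and their 3266 nuclei are called oligodendrocyte-like here. Cluster 5 had Hapln2 and Enpp2 among its leading genes and held a median of 861 UMIs. Cluster 15 held 2231 UMIs per nucleus and more of the granule neuron markers (2745 CPM, against 1017 CPM in cluster 5), and doublets were not removed. Mbp stood at 4768 CPM over the nuclei of cluster 5 and 1581 CPM over those of cluster 15. Cluster 20 (310 nuclei), with 5 of 6 markers such as Bmp4 and Enpp6, is called committed precursor-like. A further 2917 nuclei were precursor-like, and 48631 lay outside the lineage.

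Each member was far higher in oligodendrocyte-like nuclei than outside the lineage in every rat, which describes the clusters and was not tested. Mbp stood at 2672 to 4403 CPM over the 4 rats in oligodendrocyte-like nuclei and at 96.4 to 264 CPM outside the lineage. Mog stood at 731 to 1486 CPM and at 5.76 to 10.8 CPM. The genes differed in the outside level taken as a share of the oligodendrocyte level. That share is not the outside level itself, and Cnp stood at only 5.48 to 9.91 CPM outside, near Mog. The outside level was 2.19% to 7.30% of the oligodendrocyte level for Mbp, 1.95% to 6.15% for Mobp and 1.93% to 6.90% for Cnp. It was 0.742% to 3.12% for Cldn11, 0.747% to 2.85% for Ermn and 0.582% to 2.57% for Mal. For Mag it was 0.472% to 1.94%, for Mog 0.420% to 1.47% and for Opalin 0.344% to 1.44%. The ranges of neighbouring genes in this order overlapped, and those of Mbp and Mog did not.

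**Figure D3:**
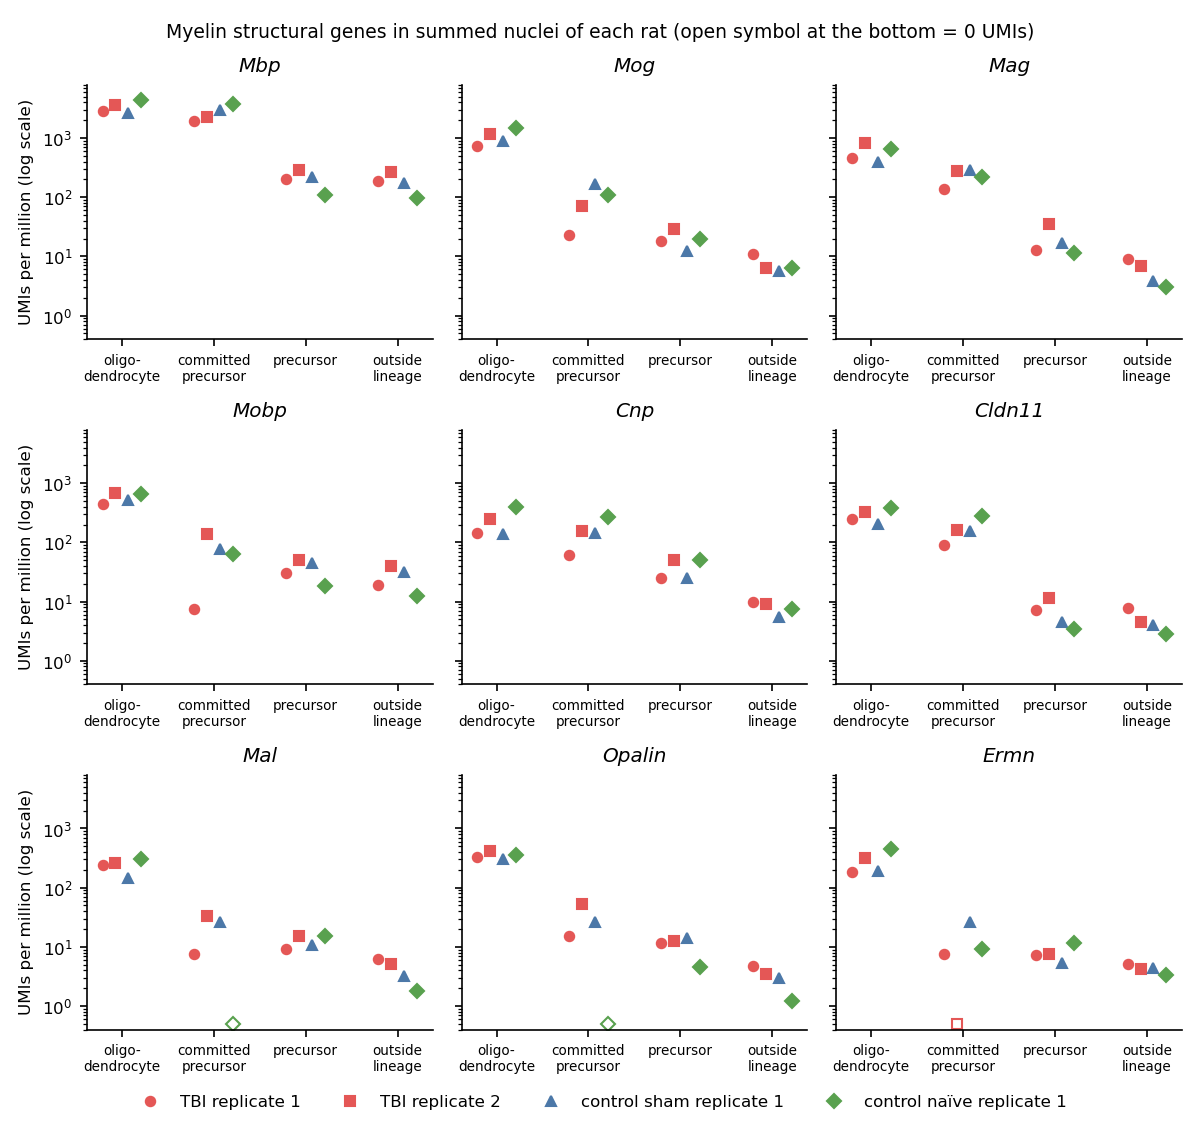
Level of each myelin gene in CPM of UMIs (log scale) in the summed nuclei of each of 4 rats, in oligodendrocyte-like, committed precursor-like, precursor-like and outside nuclei, with each symbol a rat and open symbols at the lower edge for a sum of 0. Mbp, Mag, Cnp and Cldn11 are high already in committed precursor-like nuclei, and Mobp, Mog, Mal, Opalin and Ermn reach at most 20.1% of their oligodendrocyte level there.

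With each nucleus thinned to 500 UMIs, a Mbp UMI was found in 72.6% to 87.9% of oligodendrocyte-like nuclei, 48.5% to 56.6% of committed precursor-like nuclei and 3.61% to 10.7% of nuclei outside the lineage. In glutamatergic neuron-like nuclei the share was 2.15% to 6.89%, and the origin of these UMIs was not tested. Unthinned, Mbp was found in 93.5% to 99.7% of oligodendrocyte-like nuclei (median 734.5 to 1188.5 UMIs per rat) and in 9.51% to 29.1% of glutamatergic neuron-like nuclei (median 1741.5 to 2711 UMIs). For Mog the thinned shares were 35.4% to 61.3% in oligodendrocyte-like nuclei and 0.222% to 0.557% outside. Glutamatergic neuron-like nuclei make up most of the nuclei outside the lineage, so those shares are not independent. The thinned Mbp share was higher in other classes, at 10.9% to 33.1% in astrocyte-like nuclei, 7.83% to 17.6% in microglia-like nuclei and 18.5% to 53.1% in cluster 8, an unnamed cluster led by mitochondrial genes.

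Committed precursor-like nuclei separated the members by stage. Mbp reached 63.4% to 111% of the oligodendrocyte level there, Cnp 42.4% to 105%, Cldn11 36.7% to 75.3% and Mag 29.4% to 73.9%. Mobp reached 1.69% to 20.1%, Mog 3.12% to 18.4%, Mal at most 18.1%, Ermn at most 13.5% and Opalin at most 12.7%. In all 4 rats each of the first 4 genes reached a higher share of its oligodendrocyte level than any of the other 5 did in any rat. The oligodendrocyte level pooled clusters 5 and 15. Over all 4 rats Mbp stood at 2661 CPM in committed precursor-like nuclei, 4768 CPM in cluster 5 and 1581 CPM in cluster 15. Cnp stood at 153, 309 and 110 CPM in the same order. The counts behind the low genes were small. Over 310 nuclei there were 1353 UMIs of Mbp, 118 of Mag, 85 of Cldn11 and 78 of Cnp, against 45 of Mog, 38 of Mobp, 13 of Opalin, 9 of Mal and 5 of Ermn. No UMI of Mal or Opalin was found in the 53 nuclei of the naïve rat, which allows a share of up to 5.66% of nuclei with a UMI, and none of Ermn in the 107 nuclei of TBI replicate 2, which allows up to 2.80%.

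Oligodendrocyte-like nuclei made up 6.18% (replicate 1) and 9.46% (replicate 2) of all nuclei in TBI, against 4.48% for the sham control and 3.30% for the naïve control. Both TBI rats lay above both controls, with a difference of 3.93 percentage points (two-sided exact permutation p = 0.3333, which is as low as 2 against 2 rats can go). Among nuclei with at least 1000 UMIs the shares were 3.85% and 2.91% in TBI and 3.30% and 2.51% in the controls, and the groups overlapped. The median oligodendrocyte-like nucleus held 1026 and 734.5 UMIs in TBI and 1109 and 1188.5 UMIs in the sham and naïve rats. The 9 genes summed over all nuclei to 456 and 765 CPM in TBI and to 408 and 330 CPM in the sham and naïve rats.

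Within oligodendrocyte-like nuclei the members did not differ between TBI and control beyond the spread of the rats, and no direction held under all settings. Of the 9 genes 6 had a Log2FC below 0 and 3 above, where 51.2% of all genes were below 0. The values ran from −0.54 to 0.19 with a median of −0.16. None passed an FDR of 0.05 (FDR = 0.999 for all 9, edgeR), the called share of 9480 genes being 0.00%, and the smallest unadjusted p of a member was 0.213 where 2.14% of the genes had one under 0.05. The rats of the groups overlapped for all 9 members, and did not overlap for 31.0% of all genes.

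Mbp stood at 2889 and 3618 CPM in TBI, and at 2672 CPM (sham) and 4403 CPM (naïve) in the controls (Log2FC −0.25, SE 0.30). Mog stood at 731 and 1168 CPM in TBI and at 892 and 1486 CPM in the sham and naïve rats (Log2FC −0.45, SE 0.33). Cnp had the widest spread, with 144 and 251 CPM in TBI and 140 and 391 CPM in the controls (Log2FC −0.54, SE 0.47). The naïve rat was the highest of the 4 for these 3 genes and also for Cldn11, Mal and Ermn. Mag stood at 466 and 817 CPM in TBI and at 386 and 652 CPM in the controls (Log2FC 0.19, SE 0.35), Mobp at 451 and 685 CPM against 523 and 649 CPM (Log2FC −0.16, SE 0.27), and Opalin at 333 and 412 CPM against 299 and 351 CPM (Log2FC 0.08, SE 0.22). For these 3 genes TBI replicate 2 was the highest.

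The direction depended on which nuclei and which control were used. All 9 members were lower in TBI against the naïve rat alone (median −0.56) and all 9 higher against the sham rat alone (median 0.33). With nuclei of at least 1000 UMIs all 9 were lower (median −0.65). Nuclei chosen by a marker gate instead of clusters were 3119 oligodendrocyte-like nuclei, 1830 from outside the lineage and 90 precursor-like or committed precursor-like nuclei. With that gate all 9 were higher (median 0.69). No member passed the FDR in any of these. Of the 9 lineage regulators 7 were tested, 2 with a Log2FC above 0 and 5 below (median −0.18), and none passed the FDR. Among them Myrf stood at 116 and 160 CPM in TBI and at 70.1 and 66.4 CPM in the sham and naïve rats (Log2FC 0.91, SE 0.25, FDR = 0.999, edgeR), higher in both TBI rats than in either control, as were 23.0% of all genes. The other myelin and junction proteins had a median of −0.19 over 8 genes tested.

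**Figure D4:**
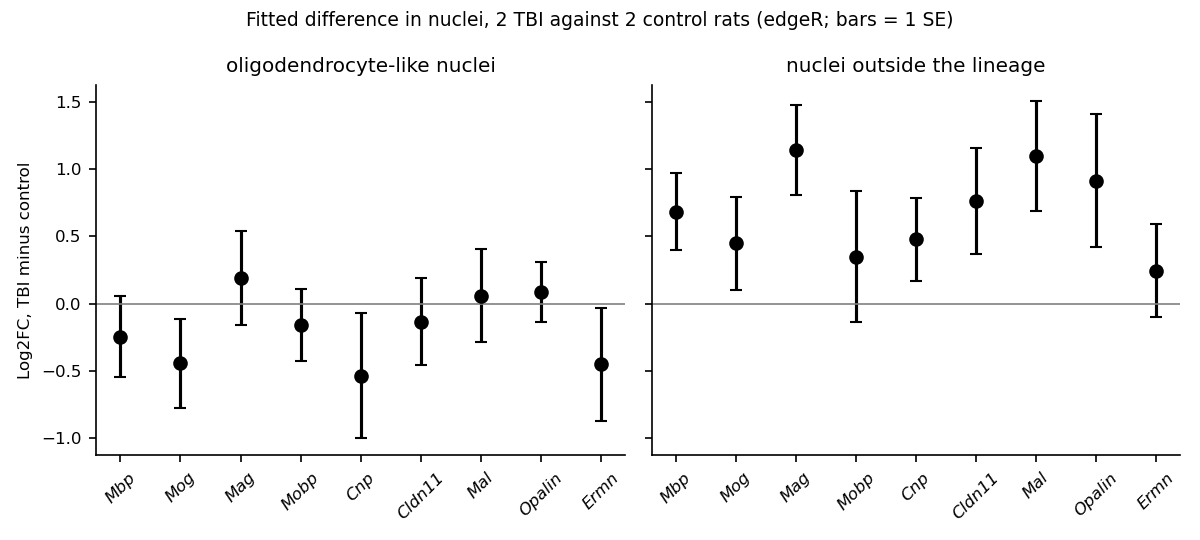
Fitted Log2FC, TBI minus control (vertical axis), of each myelin gene with 1 SE, in oligodendrocyte-like nuclei and in nuclei outside the lineage, 2 TBI against 2 control rats. The 9 genes scatter about 0 in oligodendrocyte-like nuclei, from −0.54 to 0.19, and lie between 0.24 and 1.14 outside the lineage.

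Outside the lineage all 9 members had a Log2FC above 0 and none below, where 51.3% of all genes were below 0. The values ran from 0.24 to 1.14 with a median of 0.68, and none passed the FDR (0.985 to 0.986, edgeR, called share of 15789 genes 0.00%). The other lists also lay mostly above 0 here. Of genes tested these were 7 of 7 transcription regulators (median 0.80), 5 of 6 lipid enzymes, 6 of 8 other myelin and junction proteins and 5 of 6 receptors. Both TBI rats lay above both controls for 7 of the 9, all but Mobp and Ermn, where 33.8% of all genes had the groups apart, 23.5% with TBI higher and 10.3% with TBI lower. Mbp, Mag and Mal had an unadjusted p under 0.05 (0.0495, 0.0113 and 0.0308, edgeR), where 3.42% of all genes had one under 0.05. Mbp stood at 190 and 264 CPM in TBI and at 174 and 96.4 CPM in the sham and naïve rats (Log2FC 0.68, SE 0.29). Mag stood at 9.05 and 6.94 CPM in TBI and at 3.82 and 3.08 CPM in the controls (Log2FC 1.14, SE 0.34), and Mal at 6.20 and 5.15 CPM against 3.27 and 1.78 CPM (Log2FC 1.10, SE 0.41). Mobp stood at 19.4 and 40.1 CPM against 32.2 and 12.6 CPM, and without TBI replicate 2 or the naïve rat its Log2FC was below 0 (−0.29 and −0.17). The share of oligodendrocyte-like nuclei was also higher in both TBI rats. Of these, TBI replicate 2 had the larger share, and the lower level for 7 of the 9 genes, all but Mbp and Mobp. That order takes entries stored with the value 0, described below, as 0. Counted as 1 UMI each, they raised the members' UMIs outside the lineage from 8086 to 13594 in TBI replicate 2. In TBI replicate 1 the rise was from 7947 to 8150. The order of single genes with these entries counted was not tested. The part of the share of oligodendrocyte-like nuclei in the levels was not tested either. In glutamatergic neuron-like nuclei alone all 9 were above 0 (median 0.90), and none passed the FDR. These nuclei are most of those outside the lineage, so this is not an independent result.

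For all members but Mobp and Cnp, the share of the 9 genes' UMIs in oligodendrocyte-like nuclei stood apart from that outside the lineage in every rat. The ranges for committed precursor-like nuclei overlapped those outside for Mbp, Mog, Cnp and Opalin. They did not for Cldn11, Mal, Ermn, Mag (4.70% to 8.83% against 1.62% to 3.44% outside) and Mobp (0.334% to 4.31% against 7.36% to 13.6%). Mbp gave 46.0% to 50.8% of the members' UMIs in oligodendrocyte-like nuclei, 71.9% to 84.6% in committed precursor-like nuclei, 44.8% to 62.1% in precursor-like nuclei and 71.4% to 76.7% outside the lineage. Mog gave 12.9% to 16.4% in oligodendrocyte-like nuclei, 1.003% to 4.25% in committed precursor-like nuclei, 3.54% to 8.10% in precursor-like nuclei, 1.88% to 4.63% outside and 1.44% to 1.71% of the counts in bulk libraries. The UMIs and counts are not corrected for length, so the shares do not compare genes. Bulk counts and nuclear UMIs were also made by different methods, so bulk shares are not on the same scale as nuclear shares. Of all Mog UMIs 81.4% lay in oligodendrocyte-like nuclei, and 77.9% of those of Opalin and 74.3% of those of Mag, but only 37.8% of those of Mbp, 43.2% of those of Mobp and 43.9% of those of Cnp. The Mbp UMIs outside the lineage (56.3%) therefore outnumbered those inside it. The ratio of Mbp to Mog UMIs was 2.96 to 3.95 in oligodendrocyte-like nuclei and 15.4 to 40.8 outside.

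Outside the lineage the level was uneven. Cluster 8, led by mitochondrial genes such as Mt-nd1 and Mt-co2, had Mbp at 444 to 2044 CPM and Mobp at 81.8 to 371 CPM, but Mog at only 6.83 to 15.1 CPM. Astrocyte-like nuclei had Mbp at 330 to 925 CPM and Mobp at 51.7 to 149 CPM, with Mog at 18.8 to 30.7 CPM. Glutamatergic neuron-like nuclei had Mbp at 42.4 to 144 CPM and Mog at 0.641 to 6.82 CPM. What the mitochondrial-led nuclei are was not tested.

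**Figure D5:**
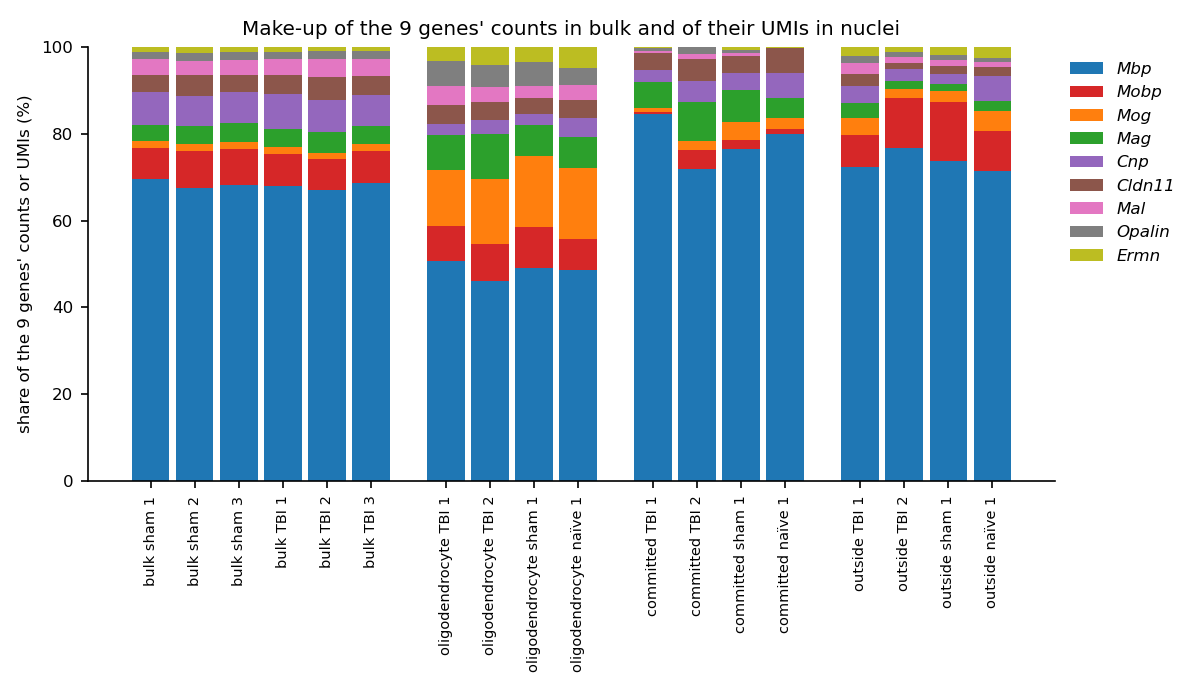
Share of each of the 9 genes in their summed counts or UMIs (vertical axis, 0% to 100%), as stacked bars. Bars stand for each bulk library and, for each of 4 rats, oligodendrocyte-like, committed precursor-like and outside nuclei. Mbp takes 67.0% to 69.6% in bulk, 46.0% to 50.8% in oligodendrocyte-like nuclei and 71.4% to 76.7% outside the lineage. Bulk bars are not on the same scale as nuclear bars.

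The matrices also hold entries stored with the value 0, and for the 9 genes their share differed between compartments. They made up 1.63% and 27.4% of stored entries for the TBI rats (replicates 1 and 2), 11.1% for sham and 15.5% for naïve. The sources used here do not say what made them. For the 9 genes they were 0.103% to 2.95% of stored entries in oligodendrocyte-like nuclei. Outside the lineage they made up 3.599% and 59.3% for the TBI rats, 27.7% for sham and 51.4% for naïve. Counted as 1 UMI each, they left all 9 Log2FC outside the lineage above 0 (0.30 to 0.95) and 6 of 9 below 0 in oligodendrocyte-like nuclei (median −0.22), and Mbp's share outside became 65.6% to 72.0%.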

How the data were processed

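For bulk RNA-seq the authors estimated transcript counts with kallisto and deposited these estimated counts and a table of log2 CPM for 14166 genes, filtered on a total count of 4 and on the lowest 15% of variance. Tools named per the labels are DESeq2, Cell Ranger and Seurat. Gene counts were worked back from the deposited log2 CPM (0.5 added per count) and rounded, since transcripts could not all be assigned to genes with the tables used, a departure from the design written at the start. For snRNA-seq the authors deposited UMI counts per rat from Cell Ranger 6.1.2 over exons and introns on Rnor 6.0. The study's filters (at least 500 UMIs, 300 features and a log10 genes-per-UMI score of 0.8, at most 5% mitochondrial and 2% ribosomal UMIs) kept 1 nucleus more than the study states. Nuclei were clustered in Seurat 5.3.0 (2000 variable features less the members, 25 components, resolution 0.6) and named from at least 3 markers. Names are rebuilt and can differ from the study's.

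The test was edgeR 4.0.16's quasi-likelihood test (TMM, Benjamini-Hochberg over all genes, called at FDR under 0.05) on gene counts or on UMI sums per rat. DESeq2 1.42.0, limma 3.58.1, other scalings and filters, leaving out rats, the marker gate and the depth minimum were alternatives. Reading stored zeros as 1 UMI, cluster 5 alone, glutamatergic-like nuclei alone and DESeq2 without sham replicate 2 were added after the data were seen. Named genes are the 9 members, the fixed lists and the 5 genes most like the members in bulk, and Bcas1 to Pik3r4 follow from that rule. Single genes of clusters 5, 8 and 20 were chosen after their values were seen. The members and lists were chosen with earlier results of these data known. Limits from a count of 0 use 3 counts, and they and other counting statements cover counting error only. Scripts were tested on simulated data. The Mbp promoter and some genes of the lists are not reported here. R 4.3.3, Python 3.11.15 and matplotlib 3.10.9 were used.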

Additional observations from a re-analysis of the deposited data

How the results depend on the processing

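In bulk, 118 of 126 values of single members under an alternative kept their direction and stayed above the FDR threshold. The other 8 all came from leaving out sham replicate 2. Leaving out 1 library at a time, Log2FC ran from −0.93 to 0.13 for Mag, −0.87 to 0.032 for Cnp, −0.91 to 0.26 for Cldn11 and −0.78 to 0.13 for Mal. For the other 5 genes it stayed below 0, with extremes of −1.29 (Ermn) and −0.015 (Opalin). Without sham replicate 1, 5 members had an unadjusted p under 0.05 (edgeR, lowest FDR 0.330), as did 1871 of 14166 genes. DESeq2 without sham replicate 2 gave 0.10 for Mag, 0.0099 for Cnp, 0.24 for Cldn11 and 0.11 for Mal. Over all genes edgeR called 0, with 1360 at an unadjusted p under 0.05, DESeq2 called 349, DESeq2 without sham replicate 2 called 468, and leaving out 1 library gave 0 to 1. No member was called by any of these.

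Deviations of same-numbered bulk rats had correlations of 0.352, 0.173 and −0.03, and those of differently numbered sham and TBI rats −0.276 to 0.109. The labels do not say that the numbers mark pairs, and these correlations cannot settle it. With the replicate block 61 genes were called and 5 members had an unadjusted p under 0.05, with a lowest FDR of 0.334 among the 9. In the nuclei no paired analysis was possible because the groups share fewer than 2 replicate numbers within a control kind.

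In oligodendrocyte-like nuclei 75 of 99 values kept their direction, and 97 of 99 outside the lineage. At 1000 UMIs or more Log2FC was −0.37 for Mag, −0.26 for Mal and −0.33 for Opalin. With the marker gate it was 0.58 for Mbp, 0.46 for Mog, 0.69 for Mobp, 0.45 for Cnp, 0.76 for Cldn11 and 0.43 for Ermn, and in cluster 5 alone −0.077 for Mal. Leaving out 1 rat at a time, it ran from −0.60 to 0.22 for Mbp, −0.84 to 0.031 for Mog, −0.29 to 0.68 for Mag, −0.51 to 0.12 for Mobp, −1.14 to 0.44 for Cnp, −0.56 to 0.43 for Cldn11, −0.44 to 0.75 for Mal, −0.095 to 0.25 for Opalin and −0.98 to 0.33 for Ermn. Outside the lineage only Mobp changed sign, from −0.29 to 1.16. A lone rat left in an arm was assumed to vary like the others.

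Genes called in oligodendrocyte-like nuclei were 1 by DESeq2, 16 with no filter on low sums and 0 to 25 leaving out 1 rat, and outside the lineage 4 by DESeq2 and 0 to 71 leaving out 1 rat. The difference in the share of oligodendrocyte-like nuclei was 3.93 points in the clusters (2.01 times the controls), 2.52 points with the marker gate (9.91% and 10.9% in TBI against 7.80% and 8.01%, or 1.32 times), 0.48 points at 1000 UMIs or more and 2.29 to 5.57 leaving out 1 rat. The causes of these changes were not tested. With 2 or 3 rats a group, and 5 to 45 UMIs for each of 5 members in committed precursor-like nuclei, small differences could not be seen.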
